A study of Homo sapiens with 36 samples.

Results

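Intermediate filament genes were followed through the first 2 days after NEUROG2 and a pair of small molecules were used on fibroblasts to turn them toward neurons: VIM, NES, NEFL, NEFM, NEFH, INA, PRPH, GFAP, LMNA and SYNM. They were taken by gene symbol, and all 10 were found in every one of the 9 tables, which list 23146 loci each. The cells were MRC-5, an established line grown from human fetal lung, and total RNA was sequenced from 36 libraries in 12 groups of 3. FD cells carried a GFP lentivirus and were given 10 µM forskolin, which activates adenylyl cyclase and so raises cyclic AMP, with 1 µM dorsomorphin, which blocks BMP type I receptors and also AMPK. N cells carried a lentivirus for HA-tagged NEUROG2, a proneural basic helix-loop-helix factor, and received neither molecule. NFD cells carried the NEUROG2 virus and received both molecules. GFP cells carried the GFP virus and received neither. Each group was collected at 0.5, 1 and 2 days post treatment (DPT), counted in all cultures from the time the molecules were given.

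Intermediate filaments are rope-like polymers of coiled-coil proteins, and the kind a cell makes follows its type. Vimentin is the type III filament of fibroblasts and other mesenchymal cells. Neural progenitors pair vimentin with nestin, young neurons make α-internexin and then the neurofilament triplet, peripheral neurons add peripherin, and astrocytes make GFAP. Synemin co-assembles with vimentin or desmin, and lamins A and C, both products of LMNA, line the inner face of the nuclear envelope in most differentiated cells.

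Promoter windows from RefSeq (GRCh38.p14), 250 bases before to 50 bases after an annotated start, were matched by symbol for 6 of the 10 genes: VIM, NES, INA, PRPH, LMNA and SYNM. Those of VIM, NES, INA and SYNM are shown as examples. Capitals mark matches, on either strand, to motifs that were searched for: the E-box CANNTG that basic helix-loop-helix factors bind, with its forms CAGATG and CAGCTG, part of the cAMP response element (TGACG), the full element (that part joined to its reverse complement with the shared CG counted once), and the AP-1 site TGANTCA. The first forms are also counted as CANNTG, and a full element is also counted as TGACG.
VIM: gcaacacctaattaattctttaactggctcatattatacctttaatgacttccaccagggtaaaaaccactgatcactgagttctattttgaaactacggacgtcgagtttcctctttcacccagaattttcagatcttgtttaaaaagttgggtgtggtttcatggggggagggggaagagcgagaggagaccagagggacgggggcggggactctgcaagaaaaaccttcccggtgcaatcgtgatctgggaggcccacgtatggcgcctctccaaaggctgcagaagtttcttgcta
NES: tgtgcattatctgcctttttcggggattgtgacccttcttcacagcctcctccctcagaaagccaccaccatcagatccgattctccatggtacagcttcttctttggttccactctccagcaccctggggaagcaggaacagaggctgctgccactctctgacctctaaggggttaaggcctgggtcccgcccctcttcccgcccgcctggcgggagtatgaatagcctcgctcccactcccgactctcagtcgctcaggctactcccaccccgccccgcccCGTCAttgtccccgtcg
INA: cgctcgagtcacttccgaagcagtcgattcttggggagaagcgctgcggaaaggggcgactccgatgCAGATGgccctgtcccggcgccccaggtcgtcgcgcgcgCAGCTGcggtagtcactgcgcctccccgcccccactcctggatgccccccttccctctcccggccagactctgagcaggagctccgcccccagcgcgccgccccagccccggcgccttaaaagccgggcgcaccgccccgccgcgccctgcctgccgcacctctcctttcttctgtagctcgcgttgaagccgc
SYNM: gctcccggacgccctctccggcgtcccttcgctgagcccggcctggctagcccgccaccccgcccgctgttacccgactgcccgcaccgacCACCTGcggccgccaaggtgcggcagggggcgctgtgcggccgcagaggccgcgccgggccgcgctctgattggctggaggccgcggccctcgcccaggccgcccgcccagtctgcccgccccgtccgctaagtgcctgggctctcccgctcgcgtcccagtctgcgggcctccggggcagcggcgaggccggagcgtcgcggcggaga
The windows are chr10:17227991-17228290 on the plus strand for VIM, chr1:156677358-156677657 on the minus strand for NES, chr10:103276888-103277187 on the plus strand for INA and chr15:99104830-99105129 on the plus strand for SYNM. The INA window held CAGATG at -183 and CAGCTG at -144, counted from the start. The SYNM window held 1 other E-box, CACCTG at -159, and the NES window held CGTCA, the reverse complement of TGACG, at 34. None of these motifs was found in the VIM window. Among the windows not shown were several of LMNA, each counted from its own start. That at chr1:156082323-156082622 held TGACG at -74, and that at chr1:156082631-156082930 held none of these motifs. The LMNA window at chr1:156106466-156106765 held the E-boxes CACATG at -110 and CAGGTG at -13, and CGTCA at -231 and -218. The PRPH window held the E-box CAAGTG at -184. Of 35116 windows of the same length, 14.7% held CAGATG, 17.9% CAGCTG, 68.7% any E-box, 24.6% TGACG, 1.85% the full element and 7.71% the AP-1 site, so single matches are common and are only a description of the letters.

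Every level below is the authors' FPKM of a group (fragments per kilobase of transcript and per mapped fragments of the library), a per-length scale, and is 1 value for 3 libraries, with no spread between them. Calls use the authors' q-value at a threshold of 0.05. Counts and levels of single libraries were not analysed here, their depth is unknown, and nothing in the labels says that libraries of 1 group came from separate cultures, so the p-values measure only the spread between libraries, which may be technical. The labels disagree on the medium of GFP cells (serum medium in one field, neuron induction medium in another), and a change of medium and the treatment cannot be told apart in the comparisons with GFP. N and NFD cells have the same labelled medium. NEUROG2 itself read 2616, 2565 and 2641 FPKM in N cells at 0.5, 1 and 2 DPT, against 36.7, 18.5 and 15.3 FPKM in GFP cells. It read 12.7, 12.3 and 15.4 FPKM in FD cells, which had no NEUROG2 virus, and whether libraries shared reads was not tested. In NFD cells the locus had too many fragments and carries no value. All 14 fibroblast markers were at 1 FPKM or more in every group, with summed levels of 2356 to 3649 FPKM in NFD cells and 5673 to 8929 FPKM in GFP cells. Endothelial markers summed to 5.83 to 10.5 FPKM in NFD cells and 4.12 to 19.4 FPKM in GFP cells, blood markers to 12.3 to 21.1 FPKM in NFD cells and 29.8 to 62.3 FPKM in GFP cells, and oligodendrocyte and Schwann cell markers to 30.8 to 33.6 FPKM in NFD cells and 28.0 to 36.5 FPKM in GFP cells. Single genes carried most of some of these sums, TEK the endothelial one in GFP cells, and CD68 the blood one and CNP the glial one in both groups. Without the most abundant gene of each group, the endothelial markers summed to 3.91 to 5.70 FPKM in NFD cells and 0.318 to 0.427 FPKM in GFP cells, and the oligodendrocyte and Schwann cell markers to 9.59 to 12.7 FPKM in NFD cells and 1.82 to 2.34 FPKM in GFP cells. In bulk RNA, fewer cells of a type and less RNA per cell cannot be told apart.

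Vimentin, the main filament of the fibroblast, fell in all 9 comparisons, and furthest where NEUROG2 and the molecules were combined. VIM (chr10:17270257-17279592, GRCh37) was at 3219, 2334 and 1364 FPKM in FD cells at 0.5, 1 and 2 DPT. In N cells it was at 3364, 2407 and 1659 FPKM. In NFD cells it was at 2052, 677 and 285 FPKM, against 4453, 4377 and 3794 FPKM in GFP cells. Each treated condition was thus below GFP at each time, NFD was the lowest of the 4 at each time, and FD and N lay close together. At 2 DPT VIM was 2.78-fold lower in FD cells, 2.29-fold lower in N cells and 13.3-fold lower in NFD cells than in GFP cells. Log2 fold changes in the authors' deposited table were -0.47, -0.91 and -1.48 for FD at the 3 times, -0.40, -0.86 and -1.19 for N, and -1.12, -2.69 and -3.74 for NFD, with a largest q of 0.0322 (N at 0.5 DPT). By FPKM, VIM ranked 46, 172 and 348 among the 23146 loci in NFD cells, against 16, 15 and 26 in GFP cells. A fall this deep was rare among abundant transcripts: of the 132 tested loci with at least 1000 FPKM in GFP cells at 2 DPT, 2 had a lower deposited fold change in NFD than VIM, DCN (decorin, a matrix proteoglycan) and TAGLN (transgelin, an actin-binding protein of contractile cells), and at 1 DPT none of 123 did. This comparison with abundant loci was chosen after the values were seen.

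**Figure D1:**
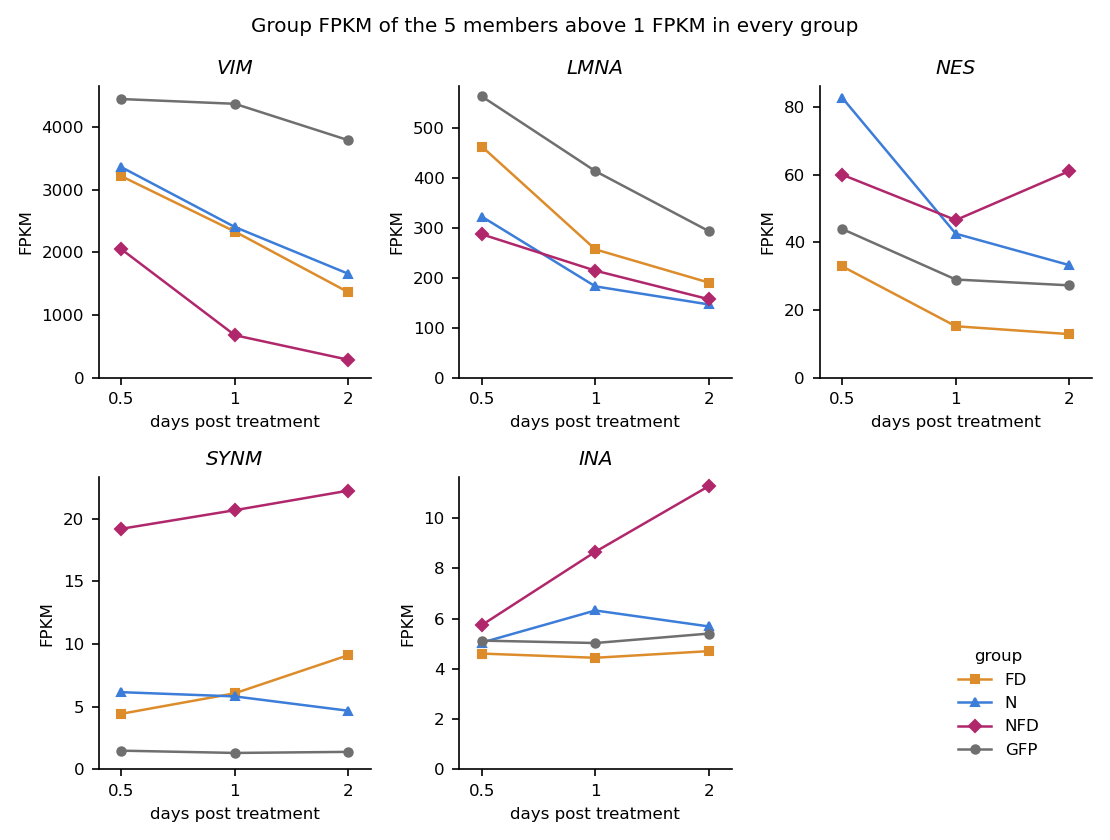
Group FPKM of VIM, LMNA, NES, SYNM and INA (vertical axes, linear, starting at 0) against days post treatment, with 1 point per group of 3 libraries for FD, N, NFD and GFP. NFD cells had the lowest VIM (285 FPKM at 2 DPT, against 3794 in GFP cells) and the highest SYNM at each time, and their NES was 61.1 FPKM at 2 DPT while that of FD cells was 12.9 FPKM.

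Nestin moved the opposite way under the molecules and under NEUROG2. NES (chr1:156638555-156647189, GRCh37) encodes a large type VI protein that needs a partner such as vimentin to form filaments. It was at 32.9, 15.2 and 12.9 FPKM in FD cells at 0.5, 1 and 2 DPT, at 82.7, 42.6 and 33.3 FPKM in N cells, and at 60.0, 46.6 and 61.1 FPKM in NFD cells, against 43.9, 29.0 and 27.3 FPKM in GFP cells. FD was below GFP and both NEUROG2 conditions were above GFP at every time, while N was above NFD at 0.5 DPT and below it at 1 and 2 DPT. NES fell in FD, with log2 fold changes of -0.42, -0.93 and -1.09 in the authors' deposited table, and rose in N (0.91, 0.55 and 0.29) and in NFD (0.45, 0.68 and 1.16), with a largest q of 0.0207. The rise in N was thus smallest at 2 DPT and that in NFD was largest then. Within conditions the level at 2 DPT was 0.391 times that at 0.5 DPT in FD, 0.402 times in N, 1.02 times in NFD and 0.621 times in GFP, a ratio of levels for which no deposited test was used here. Among 8 neural progenitor markers, at most 1 reached 1 FPKM in any group (PROM1), and SOX1, which defines these cells, was at 0.0251 FPKM or less. Their summed level was 0.237 to 0.844 FPKM in FD and 0.785 to 10.3 FPKM in N cells. It was 0.564 to 2.85 FPKM in NFD cells, against 0.0643 to 0.176 FPKM in GFP cells. PROM1 made up 9.41 FPKM of the sum in N cells at 2 DPT, and was at 0.411 FPKM in NFD cells. Without the most abundant gene of each group, the sum at 2 DPT was 0.859 FPKM in N and 1.91 FPKM in NFD cells. It was then 0.297 FPKM in FD and 0.0928 FPKM in GFP cells. The part of these markers in the NES values was not tested.

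Synemin rose in all 9 comparisons. SYNM (chr15:99645285-99675800, GRCh37) was at 4.42, 6.06 and 9.11 FPKM in FD cells at 0.5, 1 and 2 DPT, at 6.15, 5.81 and 4.66 FPKM in N cells, and at 19.2, 20.7 and 22.3 FPKM in NFD cells, against 1.47, 1.29 and 1.38 FPKM in GFP cells. NFD was highest at each time, FD and N lay between, and FD was above N at 1 and 2 DPT but not at 0.5 DPT. Log2 fold changes in the authors' deposited table were 1.59, 2.23 and 2.73 for FD, 2.06, 2.17 and 1.76 for N, and 3.71, 4.00 and 4.02 for NFD, each at their smallest q of 0.000151. Synemin is abundant in muscle, and the 10 skeletal muscle markers summed to 1.72 to 2.74 FPKM in FD, 44.3 to 65.8 FPKM in N and 66.0 to 109.9 FPKM in NFD cells, against 2.45 to 3.64 FPKM in GFP cells. CHRNA1, a muscle acetylcholine receptor subunit, made up 103.8 FPKM of the sum in NFD cells at 2 DPT, against 0.944 FPKM in GFP cells. Among the muscle regulatory factors, MYOD1 was at 1.5 FPKM and MYOG at 0.449 FPKM in NFD cells at 2 DPT, against 0 FPKM for both in GFP cells. MYF5 was at 0 in both groups, and MYF6 was at 0.0142 FPKM in NFD cells at 2 DPT, against 0.0297 FPKM in GFP cells. The part of these markers in the SYNM values was not tested. At 2 DPT, 0.762% of tested loci had a larger fold change than SYNM in FD, 5.93% in N and 3.47% in NFD.

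Lamin A/C fell in all 9 comparisons, and its levels in NFD cells lay close to those in N cells. LMNA (chr1:156084460-156109878, GRCh37) was at 462, 256 and 190 FPKM in FD cells at 0.5, 1 and 2 DPT, at 322, 182 and 146 FPKM in N cells, and at 287, 214 and 157 FPKM in NFD cells, against 562, 413 and 293 FPKM in GFP cells. The level at 2 DPT was lower than that at 0.5 DPT in all 4 conditions, GFP included, where it was 0.521 times as high. At 2 DPT, LMNA was 1.54-fold lower in FD, 2.00-fold lower in N and 1.87-fold lower in NFD than in GFP cells. The largest q over the 9 comparisons in the authors' deposited table was 0.0454, for FD at 0.5 DPT. Both LMNA and VIM fell in NFD, but not in proportion: LMNA was 0.140, 0.316 and 0.551 times VIM in NFD cells, against 0.126, 0.0943 and 0.0772 times in GFP cells.

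Of the 5 neuronal members (INA, NEFL, NEFM, NEFH and PRPH), α-internexin alone was at 1 FPKM or more in GFP cells, and it rose in NFD cells from 1 DPT on. INA (chr10:105036919-105050108, GRCh37) was at 4.61, 4.44 and 4.70 FPKM in FD cells at 0.5, 1 and 2 DPT, at 5.04, 6.33 and 5.69 FPKM in N cells, and at 5.74, 8.67 and 11.3 FPKM in NFD cells, against 5.12, 5.03 and 5.40 FPKM in GFP cells. It rose in NFD at 1 DPT (log2 fold change 0.79) and at 2 DPT (1.06), both at q = 0.000151 in the authors' deposited table, and in N at 1 DPT alone (0.33, q = 0.0154). The other 5 comparisons in N and FD and that of NFD at 0.5 DPT did not pass, with q-values of 0.184 to 0.893 in the authors' deposited table. FD cells were below GFP at each time without passing the test.

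The neurofilament light chain rose in both NEUROG2 conditions and was near 0 in GFP cells. NEFL on chromosome 8 encodes the core subunit on which the triplet assembles. It was at 0.539, 1.34 and 1.36 FPKM in N cells at 0.5, 1 and 2 DPT and at 0.562, 1.31 and 3.62 FPKM in NFD cells, against 0.0345, 0.00562 and 0.0199 FPKM in GFP cells. N and NFD had close levels at 0.5 and 1 DPT, and NFD was 2.66-fold higher than N at 2 DPT. NEFL rose in N and in NFD at 0.5 DPT (q = 0.000942 for both) and at 2 DPT (q = 0.00554 for both), and at 1 DPT the authors' deposited table gives q = 0.243 for both, with log2 fold changes of 7.89 in N and 7.87 in NFD against the lowest GFP level. The deposited p-value was thus the same for N and NFD at each time although their levels differed at 2 DPT. Because the level in GFP cells is near 0, the size of these folds is poorly defined: NEFL in NFD at 2 DPT had a log2 fold change of 7.50 in the authors' deposited table, 4.95 with a pseudocount of 0.1 FPKM and 2.18 with a pseudocount of 1 FPKM.

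FD cells listed NEFL at 0.040, 0.00914 and 0.295 FPKM and NEFM at 0.0572, 0.0443 and 0.157 FPKM at 0.5, 1 and 2 DPT, all of them untested. Some other transcripts of neurons also had their highest level in FD cells at 2 DPT, all under 0.5 FPKM. ELAVL4, a neuronal RNA-binding protein, was listed at 0, 0 and 0.484 FPKM in FD cells, against 0, 0 and 0 FPKM in GFP cells. STMN2, a neuronal microtubule regulator, was at 0, 0 and 0.389 FPKM in FD cells, against 0, 0 and 0.00872 FPKM in GFP cells. RBFOX3, a splicing factor of mature neurons, was at 0, 0.00625 and 0.326 FPKM in FD cells, against 0, 0 and 0.00891 FPKM in GFP cells. DCX, a marker of young neurons, was at 0.00684, 0.00879 and 0.0225 FPKM in FD cells, against 0.0203, 0.0245 and 0.0131 FPKM in GFP cells, so its FD level at 2 DPT was within the range of GFP cells. At 2 DPT, RBFOX3 was higher in N (1.14 FPKM) and NFD cells (0.552 FPKM) than in FD cells, and so was DCX (0.0738 and 0.0663 FPKM). ELAVL4 was lower in N (0 FPKM) and NFD cells (0.00993 FPKM) than in FD cells, and so was STMN2 (0.0333 and 0.306 FPKM). These 4 were picked after their values were seen. Neither their part in the NEFL and NEFM levels of FD cells nor reads shared between libraries was tested, and NEUROG2 itself was listed in FD cells. The 10 neuron markers summed to 9.97 to 30.7 FPKM in FD cells, 17.6 to 23.9 FPKM in N cells and 17.2 to 28.7 FPKM in NFD cells, against 7.07 to 9.76 FPKM in GFP cells, with 2 to 4 of the 10 at 1 FPKM or more in any group. SNAP25, a protein of synaptic vesicle fusion, made up 20.6 FPKM of the sum in FD cells at 2 DPT.

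**Figure D2:**
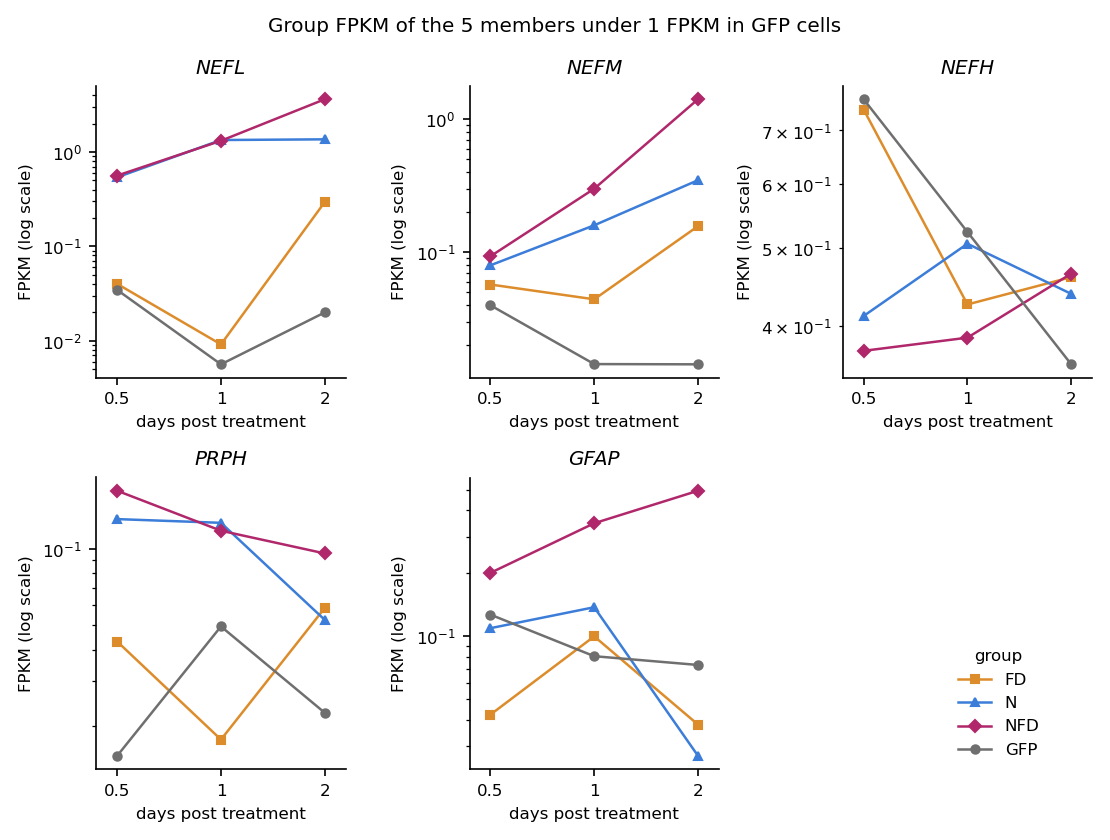
Group FPKM of NEFL, NEFM, NEFH, PRPH and GFAP (vertical axes, log scale, each with its own range) against days post treatment, with 1 point per group of 3 libraries for FD, N, NFD and GFP. At 2 DPT NEFL reached 3.62 FPKM and NEFM 1.41 FPKM in NFD cells, against 0.0199 and 0.0144 FPKM in GFP cells, while NEFH, PRPH and GFAP stayed under 1 FPKM in all 12 groups.

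The other 2 chains of the triplet behaved differently from NEFL and from each other. NEFM, the medium chain with a long phosphorylated tail, also on chromosome 8, was at 0.0797, 0.159 and 0.347 FPKM in N cells and at 0.0932, 0.300 and 1.41 FPKM in NFD cells at 0.5, 1 and 2 DPT, against 0.0399, 0.0144 and 0.0144 FPKM in GFP cells. The authors tested it once, in NFD at 2 DPT, where it did not pass (q = 0.304 in the authors' deposited table). NEFH, the heavy chain that accumulates late in axon maturation, on chromosome 22, was at 0.743, 0.425 and 0.460 FPKM in FD cells, at 0.411, 0.506 and 0.438 FPKM in N cells and at 0.372, 0.387 and 0.465 FPKM in NFD cells, against 0.765, 0.523 and 0.358 FPKM in GFP cells. NEFH fell in N (log2 fold change -0.90) and in NFD (-1.04) at 0.5 DPT, both at q = 0.000151 in the authors' deposited table, and the other 7 comparisons did not pass. GFP cells had the highest NEFH at 0.5 and 1 DPT and the lowest at 2 DPT, so the order of the conditions turned over with time.

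PRPH and GFAP remained under 1 FPKM everywhere. PRPH, the peripherin of peripheral neurons, on chromosome 12, was not tested in any comparison and was at most 0.169 FPKM, in NFD cells at 0.5 DPT, against 0.0153 FPKM in GFP cells. Of the 9 markers of peripheral and sensory neurons, 2 or 3 reached 1 FPKM in NFD cells, against 1 in GFP cells, and their part in the PRPH values was not tested. GFAP, the filament of astrocytes, on chromosome 17, was at 0.0422, 0.10 and 0.0379 FPKM in FD cells, at 0.109, 0.138 and 0.0268 FPKM in N cells and at 0.201, 0.347 and 0.496 FPKM in NFD cells at 0.5, 1 and 2 DPT, against 0.127, 0.0804 and 0.0730 FPKM in GFP cells. It was tested only in NFD at 2 DPT, where it rose (log2 fold change 2.77, q = 0.00119 in the authors' deposited table). With a pseudocount of 1 FPKM that log2 difference is 0.48. Of the 8 astrocyte markers, 2 to 4 were at 1 FPKM or more in NFD cells, against 2 in GFP cells, AQP4 was at 0 in both, and the list had summed levels of 64.3 to 149.9 FPKM in NFD cells and 133.3 to 170.9 FPKM in GFP cells. GJA1 and GLUL carried most of these sums. GJA1 was higher in NFD than in GFP cells at 0.5 DPT (117.4 against 91.2 FPKM) and lower at 2 DPT (27.1 against 113.6 FPKM). Also lower in NFD cells at 2 DPT were GLUL (35.1 against 56.0 FPKM) and S100B (0 against 0.0503 FPKM). SLC1A2 (0.863 against 0.594 FPKM) and FGFR3 (0.273 against 0.170 FPKM) were higher in NFD than in GFP cells at 2 DPT. ALDH1L1 was at 0.616, 1.5 and 0.332 FPKM in NFD cells at 0.5, 1 and 2 DPT, against 0.0100, 0.0140 and 0 FPKM in GFP cells, and SLC1A3 at 1.32, 1.58 and 0.681 FPKM in NFD cells, against 0.232, 0.312 and 0.421 FPKM in GFP cells. SOX2, a progenitor factor, was at 0.418 FPKM in NFD cells at 2 DPT, against 0.0146 FPKM in GFP cells, and was picked after its value was seen. Its part and that of the astrocyte markers in the GFAP value was not tested.

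Counts of calls among the members stand here beside the share of all tested loci called in the same direction. In FD, 1 of 6 tested members rose and 3 fell at each time, where 17.8%, 16.0% and 16.9% of all tested loci rose and 18.8%, 22.3% and 21.6% fell. In N, 3 of 7 rose at each time, with 3, 2 and 2 falling, where 26.2%, 25.4% and 27.1% of loci rose and 24.3%, 29.3% and 30.0% fell. In NFD, 3 of 7, 3 of 7 and 5 of 9 rose and 3, 2 and 2 fell, where 32.1%, 32.6% and 34.1% of loci rose and 31.3%, 33.2% and 32.0% fell. NEFL, NEFM and GFAP entered the test only where the treated group was high, so these counts are a description. The 3 comparisons of a time share the same GFP libraries.

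**Figure D3:**
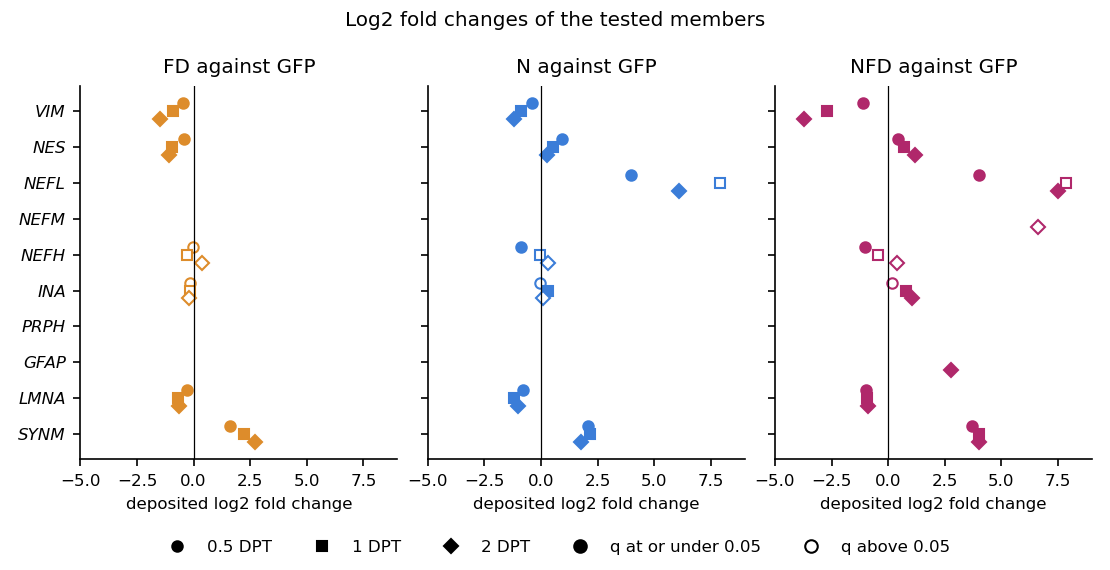
Log2 fold changes over GFP in the authors' deposited tables (horizontal axes) for each tested member (rows), in FD, N and NFD. Marker shapes give the time and filled markers a q at or under 0.05, and members that were not tested have no marker. VIM and LMNA lie left of 0 and SYNM right of 0 in all 9 comparisons, and NES lies left of 0 in FD (-1.09 at 2 DPT) and right of 0 in N and NFD (1.16 in NFD at 2 DPT).

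The makeup of the cytoplasmic filament transcripts shifted in NFD cells. Of the summed FPKM of the 9 members other than LMNA, VIM made up 98.7%, 98.9% and 98.0% in FD cells at 0.5, 1 and 2 DPT, 97.2%, 97.7% and 97.3% in N cells and 96.0%, 89.6% and 73.9% in NFD cells, against 98.9%, 99.2% and 99.1% in GFP cells. NES held 15.9% of the sum in NFD cells at 2 DPT, against 0.712% in GFP cells, and SYNM held 5.78%, against 0.0360% in GFP cells. The 5 neuronal members (NEFL, NEFM, NEFH, INA and PRPH) together held 0.408% in FD cells, 0.463% in N cells and 4.38% in NFD cells at 2 DPT, against 0.152% in GFP cells. The sum without VIM was 27.7 FPKM in FD, 45.8 FPKM in N and 100.7 FPKM in NFD cells at 2 DPT, against 34.5 FPKM in GFP cells. NES was at 21.5% of the level of VIM in NFD cells at 2 DPT, against 0.719% in GFP cells, so vimentin was still the most abundant of the 9. The shares have no error, since each group has 1 value.

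**Figure D4:**
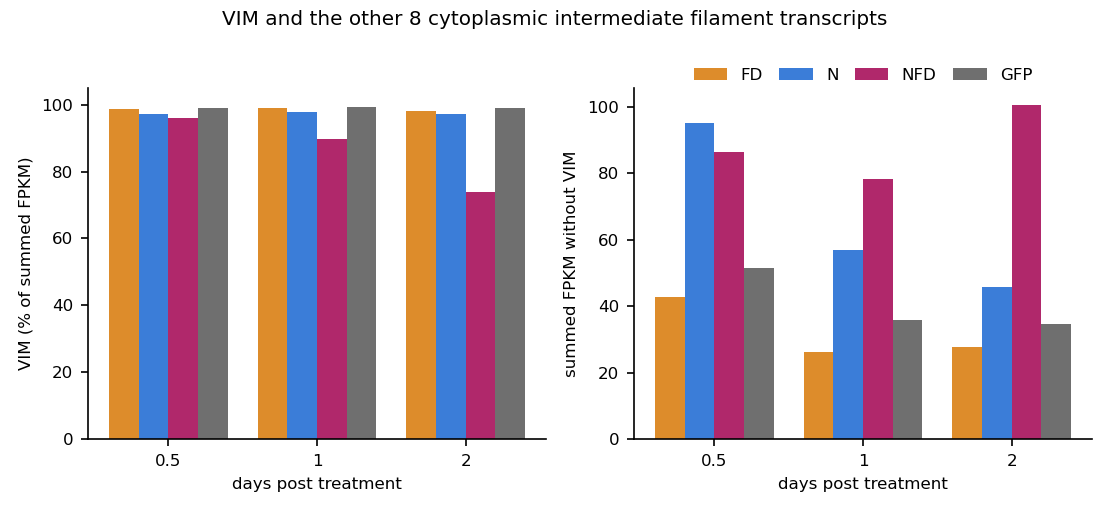
Left, the share of VIM in the summed FPKM of the 9 cytoplasmic members, in percent. Right, the summed FPKM of the other 8. Bars are 1 value per group for FD, N, NFD and GFP at 0.5, 1 and 2 days post treatment, with axes starting at 0. In NFD cells the share of VIM was 73.9% at 2 DPT and the sum of the others 100.7 FPKM, against 99.1% and 34.5 FPKM in GFP cells.

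Whether the molecules added to NEUROG2 was asked by an approximate normal test of the difference between the deposited fold changes of NFD and N, with the error of each taken from the authors' p-value and adjustment by Benjamini-Hochberg over all tested loci. The smallest deposited p-value is 5e-05, and the GFP group enters both fold changes, so the errors are upper bounds and the test is conservative. VIM was lower in NFD than in N, with a difference in log2 fold change of -1.83 at 1 DPT (95% interval -3.20 to -0.46, adjusted p = 0.0480) and of -2.54 at 2 DPT (-4.44 to -0.65, adjusted p = 0.0470) in this approximate test on the authors' p-values. NES was higher in NFD than in N at 2 DPT, by 0.88 (0.27 to 1.48, adjusted p = 0.0285 in the approximate test on the authors' p-values), and so was INA, by 0.99 (0.42 to 1.56, adjusted p = 0.00732). SYNM had 4.78 times the level of N in NFD cells at 2 DPT, yet its difference of 2.26 (0.14 to 4.37) had an adjusted p of 0.129 in the approximate normal test. LMNA differed by 0.10 (-0.55 to 0.75) at 2 DPT and NEFL by 1.41 (-4.83 to 7.65), neither passing. In all, 0 of 7, 1 of 7 and 3 of 7 members passed at 0.5, 1 and 2 DPT, where 12.4%, 18.5% and 18.7% of all loci did. At 0.5 DPT, VIM alone had an unadjusted p under 0.05.

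Among cells that all received the molecules, those with NEUROG2 had more NES and INA and less VIM. NES was higher in NFD than in FD at each time, by 0.87 (0.56 to 1.18), 1.62 (1.06 to 2.18) and 2.25 (1.48 to 3.02) in log2 fold change, with adjusted p of 3.30e-06, 1.55e-06 and 1.29e-06 in the approximate normal test. INA was higher at 1 DPT by 0.97 (0.51 to 1.42, adjusted p = 0.000321 in the approximate test on the authors' p-values) and at 2 DPT by 1.26 (0.69 to 1.84, adjusted p = 0.000182). VIM was lower at 1 DPT by the approximate test on the authors' p-values (-1.79, -3.16 to -0.41, adjusted p = 0.0283), and at 2 DPT its difference of -2.26 (-4.20 to -0.32) missed the threshold with an adjusted p of 0.0503. It passed there once the median fold change of all loci was subtracted from each table. At 0.5 DPT, NEFH (-0.997, -1.60 to -0.39) and LMNA (-0.69, -1.22 to -0.16) were lower in NFD than in FD and passed, and neither did at 1 or 2 DPT. Thus 3 of 6, 3 of 6 and 2 of 6 members passed, where 36.0%, 44.1% and 44.6% of all loci did.

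At 1 and 2 DPT the log2 fold change of NES over GFP in NFD was not the sum of those in FD and N. Its fold change in NFD exceeded the sum of those in FD and N by 1.06 at 1 DPT (0.44 to 1.68, adjusted p = 0.0104) and by 1.96 at 2 DPT (1.16 to 2.76, adjusted p = 7.71e-05) in the approximate test on the authors' p-values. INA exceeded its sum by 1.19 at 2 DPT (0.57 to 1.81, adjusted p = 0.00309 in the approximate test on the authors' p-values). All of these fold changes are against GFP. If GFP cells had another medium, its effect would enter the departure and cannot be told apart from a non-additive response to the agents. VIM differed from its sum by -0.25 (-0.96 to 0.47), -0.92 (-2.36 to 0.51) and -1.07 (-3.09 to 0.96) at 0.5, 1 and 2 DPT, and SYNM by 0.06 (-2.13 to 2.25), -0.40 (-2.85 to 2.05) and -0.47 (-2.97 to 2.02), none of them passing, and these intervals are too wide to tell additive from non-additive responses. Members passing numbered 0 of 6, 1 of 6 and 2 of 6, where 3.30%, 13.8% and 16.1% of loci passed. At 0.5 DPT, 0 members had an unadjusted p under 0.05.

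**Figure D5:**
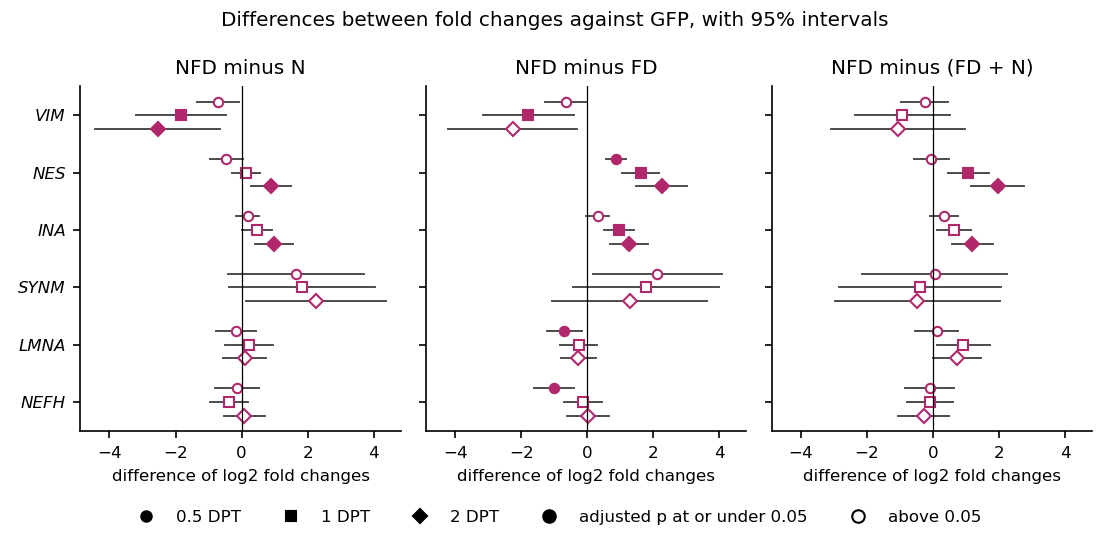
Differences between deposited log2 fold changes (horizontal axes) for VIM, NES, INA, SYNM, LMNA and NEFH (rows) at 0.5, 1 and 2 DPT, as NFD minus N, NFD minus FD, and NFD minus the sum of FD and N. Lines are 95% intervals built on upper-bound errors and filled markers passed at an adjusted p of 0.05. NES lies right of 0 in all 3 comparisons at 2 DPT (0.88, 2.25 and 1.96), and the intervals of SYNM are the widest of the 6 at each time.

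Fold changes against GFP also moved between 0.5 and 2 DPT. In NFD, VIM moved by -2.62 (-4.50 to -0.73, adjusted p = 0.0332), INA by 0.90 (0.33 to 1.47, adjusted p = 0.0137) and NEFH by 1.41 (0.75 to 2.08, adjusted p = 0.000598) in the approximate test on the authors' p-values. NEFH moved by 1.19 in N (0.57 to 1.80, adjusted p = 0.00290 in the approximate test on the authors' p-values), and its GFP level at 2 DPT was 0.468 times that at 0.5 DPT. In FD, 0 of 6 members passed, with VIM and NES at an unadjusted p under 0.05, and in N and NFD 1 of 7 and 3 of 7 passed, where 10.8%, 12.5% and 22.6% of loci passed in FD, N and NFD. SYNM in FD moved by 1.14 (-0.38 to 2.67) and did not pass.

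Across the 12 groups, levels of VIM ran opposite to those of NEFL, NEFM, INA and SYNM. Pearson's r of log2(FPKM + 1) with VIM was -0.84 for NEFL, -0.90 for NEFM, -0.85 for INA and -0.82 for SYNM, and 0.72 for LMNA, over 12 groups that share conditions and times. NES followed neither side, with r of -0.16 with VIM and 0.50 with INA. NEFL and NEFM had an r of 0.89. NEFM reached 1 FPKM in 1 of the 12 groups, NFD at 2 DPT, and NEFL in 4, and r without those groups was not computed. Of the 6385 or 6386 loci compared with each member, those most like VIM over the 12 groups were ALCAM (r = 0.986), a cell adhesion molecule, MYOF (0.984), a membrane repair protein, and NGFRAP1 (0.970). Those most like SYNM were PPP2R1B (0.972), a scaffold subunit of phosphatase 2A, C11orf96 (0.966) and SLK (0.965), a kinase. For LMNA they were TRAPPC2L (0.981), MICB (0.972) and LRRC15 (0.966), and for INA LOC728752 (0.966), KPTN (0.966) and LY6E (0.965). For NES they were SNORD104 (0.936), LAP3 (0.932) and TRAP1 (0.925). For NEFL they were LOC391322 (0.982), OSGEP (0.981) and PLEKHM1P (0.979), and for NEFM AKR1A1 (0.963), LOC100216545 (0.961) and POLM (0.961).

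Other filament proteins were called in both directions. Counts for these lists stand beside shares of all tested loci that rose of 16.0% to 17.8% in FD, 25.4% to 27.1% in N and 32.1% to 34.1% in NFD, and shares that fell of 18.8% to 22.3% in FD, 24.3% to 30.0% in N and 31.3% to 33.2% in NFD. Of 6 further cytoplasmic filament genes, 5 were tested, and in NFD 3, 3 and 2 rose and 1, 1 and 2 fell at 0.5, 1 and 2 DPT. IFFO2, an intermediate filament family orphan, was at 18.5, 14.5 and 13.6 FPKM in NFD cells, against 3.0, 3.1 and 3.64 FPKM in GFP cells, and rose at each time. SYNC, which links desmin filaments in muscle, was at 7.77, 6.41 and 8.36 FPKM in NFD cells, against 22.0, 25.9 and 20.9 FPKM in GFP cells, and fell at each time. DES, the desmin of muscle, rose in N at each time. It was at 2.04, 2.44 and 4.07 FPKM in N cells, against 0.331, 0.504 and 1.97 FPKM in GFP cells. In NFD cells DES was at 1.45, 1.44 and 2.32 FPKM, and it rose at 0.5 and 1 DPT but was not called at 2 DPT. In FD, 1, 1 and 0 of the 5 rose and 2 fell at each time, and in N 3, 3 and 2 rose and 0, 1 and 2 fell.

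Of the keratins, the epithelial filaments, 17 of 18 were found and 7 to 9 tested. In FD 1, 1 and 0 rose and 6, 5 and 5 fell, in N 1 rose at each time and 5, 5 and 6 fell, and in NFD 2, 3 and 2 rose and 5, 5 and 6 fell, where 18.8% to 22.3%, 24.3% to 30.0% and 31.3% to 33.2% of all tested loci fell in FD, N and NFD. KRT18 was at 5.82, 4.41 and 3.46 FPKM in NFD cells, against 34.2, 22.8 and 19.3 FPKM in GFP cells, and its partner KRT8 was at 2.22, 1.55 and 1.05 FPKM, against 7.43, 8.65 and 11.8 FPKM in GFP cells. Both fell in all 9 comparisons, as did KRT19. KRT8 and KRT18 have processed pseudogenes with which short reads can be shared, so their levels are uncertain. KRT10 rose in NFD at each time, with 11.4 FPKM in NFD cells at 2 DPT, against 5.65 FPKM in GFP cells. The 8 epithelial markers, which include these keratins, summed to 6.18 to 10.0 FPKM in NFD cells, against 32.9 to 46.5 FPKM in GFP cells, with KRT5 and GRHL2 at 0 in both.

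Among partners of LMNA at the nuclear envelope, 14 of 15 listed genes were found and all 14 were tested. In FD 3, 2 and 2 rose and 2, 5 and 5 fell at 0.5, 1 and 2 DPT, in N 3, 3 and 4 rose and 4, 3 and 3 fell, and in NFD 2, 4 and 4 rose and 7, 6 and 4 fell. LMNB2, a B-type lamin, was at 11.0, 7.10 and 11.2 FPKM in NFD cells, against 33.1, 19.0 and 23.5 FPKM in GFP cells, and LBR, the lamin B receptor, was at 10.8, 9.29 and 9.30 FPKM, against 18.9, 14.2 and 15.1 FPKM in GFP cells, and both fell at each time. NARF, a prelamin A binding protein, rose in all 9 comparisons and was at 42.3, 56.3 and 64.0 FPKM in NFD cells, against 18.0, 22.6 and 26.2 FPKM in GFP cells. Of 5 genes that process prelamin A, 2, 2 and 1 rose in FD and 0 fell, 1, 1 and 0 rose in N with 0, 0 and 1 falling, and 2, 1 and 0 rose in NFD with 0, 0 and 1 falling. ZMPSTE24, the protease that matures prelamin A, was called only in FD at 0.5 and 1 DPT and in NFD at 0.5 DPT.

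Proteins that tie filaments to other structures were called in both directions. Of 9 plakins and linkers, 6 to 8 were tested, and 0 rose and 5 fell in FD at each time, 3, 2 and 2 rose and 3, 5 and 4 fell in N, and 2 rose at each time and 4, 6 and 6 fell in NFD. PLEC, the plectin that cross-links vimentin, fell in all 9 comparisons and was at 10.2 FPKM in N cells at 2 DPT, against 22.4 FPKM in GFP cells. FLNA, filamin A, an actin cross-linker that binds vimentin, was at 247, 154 and 133 FPKM in NFD cells, against 448, 450 and 521 FPKM in GFP cells, and ANXA2, a membrane-binding annexin, was at 413, 245 and 128 FPKM, against 949, 857 and 503 FPKM in GFP cells. EPPK1, epiplakin, rose in NFD and was at 1.09, 1.27 and 1.45 FPKM, against 0.0212, 0.0324 and 0.0330 FPKM in GFP cells.

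Of 10 motors that carry filaments, 6 to 8 were tested, with 1, 0 and 1 rising and 1, 2 and 1 falling in FD, 0, 0 and 2 rising and 1, 5 and 1 falling in N, and 3, 2 and 3 rising and 2, 2 and 3 falling in NFD. KIF5B and KLC1, heavy and light chains of conventional kinesin, rose in NFD at each time. KLC1 was at 77.5 FPKM in NFD cells at 2 DPT, against 52.0 FPKM in GFP cells. MYO5A fell in NFD and in FD at each time, and was at 5.35 FPKM in NFD cells at 2 DPT, against 6.81 FPKM in GFP cells. Of 14 kinases and phosphatase subunits that act on filament heads and tails, 13 were tested, with 4, 2 and 2 rising and 3, 5 and 3 falling in FD, 2, 4 and 5 rising and 5, 3 and 4 falling in N, and 5, 4 and 4 rising and 6, 6 and 5 falling in NFD. CDK5R1, the p35 activator of the neurofilament kinase CDK5, was at 1.53, 2.1 and 3.12 FPKM in NFD cells, against 0.536, 0.436 and 0.657 FPKM in GFP cells, and rose, while CDK5 itself fell to 13.2, 9.77 and 11.3 FPKM in NFD cells, against 16.5, 15.5 and 18.4 FPKM in GFP cells.

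Of 10 turnover factors and small heat shock chaperones, all were tested, with 1, 0 and 0 rising and 3, 4 and 3 falling in FD, 0 rising and 7, 8 and 6 falling in N, and 2 rising at each time and 5, 4 and 3 falling in NFD, where 24.3% to 30.0% of all tested loci fell in N and 31.3% to 33.2% in NFD. HSPB1 and CRYAB, chaperones that bind filaments, fell in all 9 comparisons: HSPB1 was at 307, 260 and 173 FPKM in NFD cells, against 573, 443 and 430 FPKM in GFP cells, and CRYAB at 9.95, 7.94 and 9.06 FPKM, against 36.3, 35.4 and 22.7 FPKM in GFP cells. Of 10 neuronal cytoskeleton genes other than filaments, 5 to 7 were tested, with 1, 2 and 2 rising and 1, 2 and 2 falling in FD, 3, 4 and 4 rising and 2 falling at each time in N, and 2, 4 and 5 rising and 2, 3 and 2 falling in NFD. TUBB3, a neuronal β-tubulin that these fibroblasts already carried, fell to 186, 93.3 and 70.2 FPKM in NFD cells, against 249, 226 and 159 FPKM in GFP cells.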

How the data were processed

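The 36 libraries were prepared from total RNA with a stranded kit and read from 1 end, per the labels' protocols, and the submitters' processing notes name TopHat 1.4.1, Cufflinks 2.1.0, Cuffdiff 2.1.0 and the build GRCh37 (hg19), with no role or order. Per the file headers, each of the 9 deposited tables holds an FPKM for GFP and for 1 other condition, the log2 fold change of that condition over GFP, a status, a p-value and a q-value made by the authors. The authors' FPKM summarises the 3 libraries of a group in 1 value, and no SD can be given. The authors' p-value has a lower limit of 5e-05, and their log2 fold change is not finite where a group is listed at 0. Loci without the status OK were not tested and stay out of every count. No other listed locus overlaps a member's locus. The GFP values were the same in all tables of a time.

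The members and lists were chosen with earlier results of these data known. The 10 members are named in all tables. Of 9 gene lists, counts are given, with values for genes called the same way at each of the 3 times and reaching 1 FPKM in either group, at most the 4 with the largest fold change at 2 DPT per list and condition. Marker genes named beside a result, and ZMPSTE24, were picked after their values were seen. Some listed genes are not reported here by name. The 10 marker lists are given by summed FPKM, except that of peripheral and sensory neurons, which is given by its count at 1 FPKM. No list was tested. Loci most like a member were the 3 with the highest Pearson correlation of log2(FPKM + 1) over 12 groups, for members reaching 1 FPKM.

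For differences between tables, the standard error of a deposited log2 fold change was taken from its two-sided p-value, squared errors were added, and the two-sided normal p was Benjamini-Hochberg adjusted over all loci tested in the tables used. Alternatives were stricter thresholds of 0.01, a minimum of 1 FPKM, at least 2-fold, adjustment within a table, subtracting the median fold change, and pseudocounts of 1 and 0.1. Promoter windows are RefSeq's on GRCh38.p14 and share no coordinates with the tables. Python 3.11.15, numpy 2.4.6, pandas 2.3.3, scipy 1.17.1 and matplotlib 3.10.9 were used.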

Additional observations from a re-analysis of the deposited data

Results flagged for a closer look

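The log2 fold change of NES in NFD exceeded the sum of those in FD and N by 1.06 at 1 DPT and by 1.96 at 2 DPT in the approximate normal test of the difference. INA exceeded its sum by 1.19 at 2 DPT in the same test. An effect of another medium in GFP cells would enter these departures and cannot be told apart from a non-additive response.

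The fold change against GFP differed between 0.5 and 2 DPT for 3 genes. VIM moved by -2.62 in NFD. INA moved by 0.90 in NFD. NEFH moved by 1.41 in NFD and by 1.19 in N, with all of its levels under 1 FPKM. No other member passed this test, and in FD none did, where VIM and NES had an unadjusted p under 0.05 in it.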

How the results depend on the processing

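No paired analysis was possible because the tables hold 1 value per group and no library, and for the same reason no replicate could be left out. No called value changed sign under the alternatives run. Counts of called members moved under stricter rules: with at least 2-fold, 1 member was called in FD at 0.5 DPT and 1 at 1 DPT (4 at each before), 2 in N at 0.5 DPT (6) and 2 at 1 DPT (5), and 2 in NFD at 1 DPT (5), and at q of 0.01, 2 were called in FD at 0.5 DPT (4). With an adjusted p of 0.01 in the approximate normal test, 0 members passed for NFD against N at 1 DPT (1 before) and 1 at 2 DPT (3), 0 for the departure from the sum at 1 DPT (1), and 1 for the change with time in NFD (3). Adjustment within a table, a minimum of 1 FPKM and subtracting the median fold change left every count within 1.5 times. Subtracting it let VIM pass for NFD against FD at 2 DPT, with a difference of -2.32. A pseudocount of 1 FPKM moved 20 of 139 fold changes and differences by more than their standard error, and 0.1 FPKM moved 5 of 62, all of NEFL, NEFH, SYNM or GFAP. Group means and deposited p-values limit precision: errors behind the smallest p-value are upper bounds, which widens intervals such as those of VIM and SYNM.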
